A study of Homo sapiens with 4 samples.

Results

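The regions described here are the accessible sites of ME-1 cells that lie beside centromeres or in large duplicated blocks of 8 chromosomes. They were chosen by position alone: a peak belonged to them when its midpoint (hg19) fell in 1 of 11 windows. The windows were, in Mb, chr1 120.5 to 121.6 and 142.5 to 150 (without 149.78 to 149.87), chr2 86 to 98 and 132 to 134, chr7 56 to 67, chr9 38 to 71, chr10 38 to 50, chr16 31.5 to 35.5 and 46.3 to 47.5, chr21 9 to 16 and chr22 16 to 18. They held 855 of 67388 and 891 of 65132 peaks under DMSO, and 663 of 48930 and 720 of 53438 peaks under AI-10-49. Overlapping peaks of the 4 lists were joined into regions, of which 1381 of 103230 had their midpoint in a window. The windows were proposed with peak positions and some results of these data known, so the number and place of their peaks are given as description.

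ME-1 is an established human leukaemia line with inv(16), the inversion that fuses CBFB to MYH11. ATAC-seq, which reads open DNA through adapter insertion by the Tn5 transposase, was done after 6 h with the solvent DMSO or with 1 µM AI-10-49, an inhibitor of the fusion protein CBFβ-SMMHC. Each treatment had 2 libraries, from independent experiments per the series' design text. All libraries came from this 1 line.

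Centromeres consist of long arrays of satellite repeats, flanked by segmental duplications, large blocks that occur again elsewhere in nearly the same sequence. A reference assembly holds fewer copies of such repeats than a real genome, and a read from a repeat can match many copies. Beside these repeats the windows hold ordinary genes, among them the NBPF and NOTCH2NL families on chromosome 1, the immunoglobulin kappa locus on chromosome 2, and zinc finger genes on chromosomes 7, 10 and 16. No annotation or sequence of hg19 was used here, so no region was assigned to a gene or a repeat class and no sequence is shown. How the authors treated reads with several matches is not given in the sources used here.

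Peak height is given as reads at the summit and as times the library's background. The background, in reads per base, was 0.0613 and 0.0600 under DMSO, and 0.0965 and 0.108 under AI-10-49. The 2 treatments did not overlap in background, so an effect of AI-10-49 on height and an effect of library depth cannot be told apart. The local background of a peak is the level the peak caller expected at that place, and reads of the site can enter both it and the height.

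By number, the windows took a small and even part of every list. Their share of peaks was 1.27% and 1.37% under DMSO and 1.35% and 1.35% under AI-10-49. The means were 1.32% ± 0.0702 and 1.35% ± 0.00540 (SD, n = 2 each), and the values overlapped (exact permutation p = 1, two-sided). This difference of 0.0328 percentage points turned to -0.0417 under a −log10 q-value threshold of 5. The number of peaks fell into separate ranges, 873 ± 25.5 under DMSO and 691.5 ± 40.3 under AI-10-49, as did the whole lists (exact permutation p = 0.333, the smallest that 2 against 2 libraries allow).

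**Figure D1:**
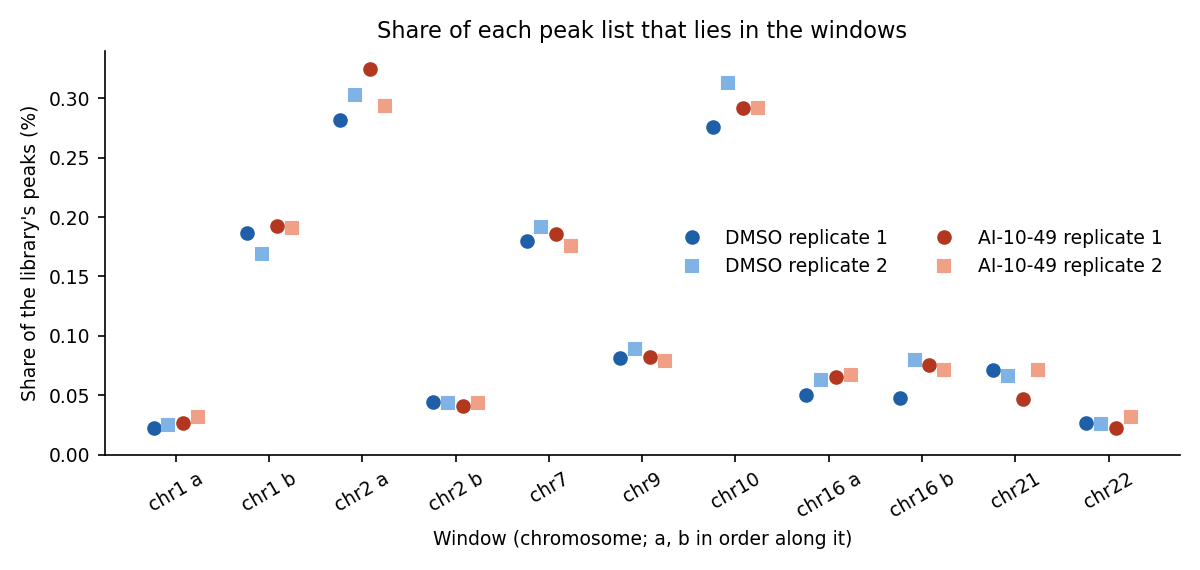
Share of each library's peaks (%, y axis) in each of the 11 windows (x axis; a and b mark 2 windows on 1 chromosome in their order), with 1 point per library. The first chromosome 2 window and the chromosome 10 window hold the most peaks, up to 0.325% and 0.313% of a list.

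The first chromosome 2 window and the chromosome 10 window held most regions, with 308 and 285, and the chromosome 22 window held 26. Density ran from 2.85 regions per Mb on chromosome 9 to 61.7 in the second chromosome 16 window. Over all windows it was 14.9 per Mb, against 34.6 elsewhere. Long stretches held no region. The longest, chr9:47212436-65613985, spanned 18.4 Mb, and others of 3.10 to 3.88 Mb lay on chromosomes 2, 7, 10 and 21. Leaving out the longest empty stretch of each window gave 23.8 regions per Mb. Assembly gaps, where no read can map, were not marked in the files.

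Spacing between neighbouring regions was like that of other regions. The median distance to the next region was 5.72 kb in the windows and 5.62 kb elsewhere, and 26.4% and 23.5% of regions had a neighbour within 1 kb.

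The difference in width between window peaks and the rest depended on the processing. Mean widths were 135.0 and 125.9 bp under DMSO and 141.9 and 148.8 bp under AI-10-49, against 132.4, 127.9, 144.3 and 148.8 bp for the other peaks of the same 4 libraries. The difference between windows and the rest was -0.414 ± 2.29 bp (SD, n = 4 libraries, exact sign-flip permutation p = 1) and was above 0 in 2 of 4 libraries. It became 9.20 bp when repeated rows for 1 peak, 1 per summit, were all kept (exact permutation p = 0.125). It was -4.15 bp under a −log10 q-value threshold of 5, -4.02 bp with at least 5 reads and -3.88 bp by medians, below 0 in all 4 libraries (exact permutation p = 0.125 each). Without the chromosome 7 window it was -4.06 bp and without the chromosome 2 windows 2.29 bp (exact permutation p = 0.125 each). Within the windows, peaks were 14.9 bp wider under AI-10-49 (130.5 ± 6.42 against 145.4 ± 4.92 bp, SD, n = 2 each), and the treatments did not overlap (exact permutation p = 0.333). With at least 5 reads at the summit this turned to -0.685 bp. The other peaks, whose means are given above, were wider under AI-10-49 as well. Windows minus rest was 0.355 ± 3.25 bp under DMSO and -1.18 ± 1.68 bp under AI-10-49, with overlap (exact permutation p = 0.667).

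Summits in the windows were slightly higher than elsewhere in all 4 libraries. The geometric mean height was 92.9 and 86.6 times the background under DMSO and 87.9 and 81.8 times under AI-10-49, against 83.2, 80.3, 76.0 and 72.2 times for the other peaks. This was 0.16 ± 0.04 higher on the log2 scale, or 1.12-fold (SD, n = 4 libraries). All 4 libraries had this direction, and the exact sign-flip permutation p of 0.125 is the smallest that 4 libraries allow. Among peaks with a local background below 8 times the library's, the difference was 0.10 (exact permutation p = 0.125). Within the windows, log2 height was 6.49 ± 0.07 under DMSO and 6.41 ± 0.07 under AI-10-49, and the libraries overlapped (exact permutation p = 0.667). The difference of -0.08 became -0.39 under a −log10 q-value threshold of 5 or in lists of equal length and -0.53 with at least 5 reads. The treatments then no longer overlapped (exact permutation p = 0.333 each). These filters do not cut the treatments at the same height. A floor of 5 reads is 81.6 and 83.3 times the background under DMSO and 51.8 and 46.5 times under AI-10-49. That alone lowers the AI-10-49 mean. With a floor of 60 times the background in every library the difference was -0.07 (exact permutation p = 0.667). Without these filters the other peaks had a mean log2 height of 6.38 and 6.33 under DMSO and 6.25 and 6.17 under AI-10-49. Windows minus rest was then 0.13 ± 0.03 under DMSO and 0.19 ± 0.02 under AI-10-49 (SD, n = 2 each). The treatments did not overlap in it (exact permutation p = 0.333). For the other peaks the difference by treatment under the filters was not computed.

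Medians were nearly level, and the gap grew toward the highest peaks. The median peak had 5 and 5 reads under DMSO in both the windows and the rest. With AI-10-49 it had 8 and 8 reads in the windows and 7 and 7 elsewhere. The 99th percentile was 40 and 35 reads in the windows against 30 and 25 elsewhere under DMSO, and 65.3 and 78.5 against 39 and 44 under AI-10-49. Peaks at or above 9 on the log2 scale of times the background were 2.34%, 1.91%, 1.66% and 1.81% of the window peaks in the same order of libraries, and 0.812%, 0.448%, 0.379% and 0.372% of the rest.

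**Figure D2:**
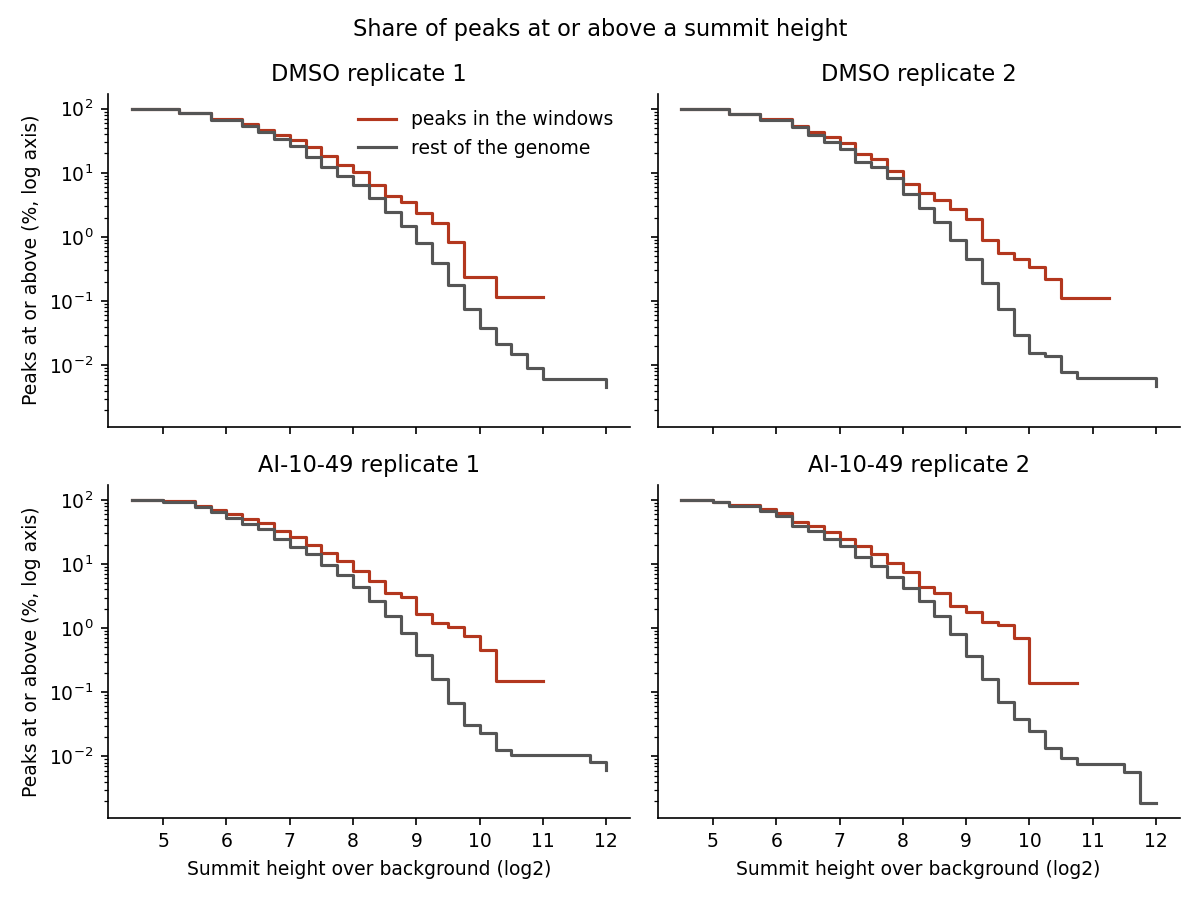
Percent of peaks (y axis, log) at or above a summit height in log2 of times the library's background (x axis), for the windows and the rest of the genome, with 1 panel per library. The lines run together at low heights and part toward high ones, where the windows hold the larger share up to their own last peak. At 9 the windows have 1.66% to 2.34% and the rest 0.372% to 0.812%, and the highest peaks of all lie outside the windows.

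The highest 1% of each list, with at least 30, 25, 40 and 44 reads, held 23 of 714, 26 of 712, 21 of 492 and 18 of 554 peaks from the windows. These were 3.22%, 3.65%, 4.27% and 3.25%, each above the windows' share of its list. Of the highest 0.1%, the windows held 3 of 68 and 6 of 67 peaks under DMSO, and 7 of 50 and 8 of 55 under AI-10-49. Of the 100 highest regions found in all 4 libraries 8 lay in the windows, and of all 29041 such regions with recovered reads 397 (1.37%) did.

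The highest region of the windows, chr1:121484425-121485434, stood beside the chromosome 1 centromere and ranked 5 by mean height among the 29041 regions of the genome with recovered reads in all 4 libraries. It had 139 and 152 reads under DMSO and 218 and 220 under AI-10-49. Over background these were 2268 and 2532 times, and 2260 and 2045 times. By reads the AI-10-49 libraries were higher and by background they were lower, without overlap on either scale. Its local background was 67.1 and 82.5 times the library's under DMSO and 69.3 and 66.3 times under AI-10-49.

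The next were neighbours on chromosome 7, chr7:61968878-61969095 and chr7:61969195-61969577. The first had 66 and 80 reads under DMSO and 105 and 107 under AI-10-49, which is 1077 and 1333 against 1088 and 995 times the background. The second had 52 and 70 reads under DMSO and 95 and 103 under AI-10-49, or 848 and 1166 against 985 and 958 times. Over background the treatments overlapped at both sites.

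On the short arm of chromosome 21, chr21:9825452-9826587 and chr21:9826703-9827552 lay next to each other and behaved otherwise. The second had 46 and 48 reads under DMSO and 106 and 98 under AI-10-49. Over background it reached 751 and 800 times, and 1099 and 911 times. The first had 45 and 38 reads against 76 and 97, or 734 and 633 against 788 and 902 times. At both, each AI-10-49 library exceeded each DMSO library on either scale.

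Of the 6 highest, the remaining one was chr1:143913320-143913586 on the long arm side, with 50 and 56 reads under DMSO and 74 and 92 under AI-10-49 (816 and 933 against 767 and 855 times the background). Over background the treatments overlapped there.

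**Figure D3:**
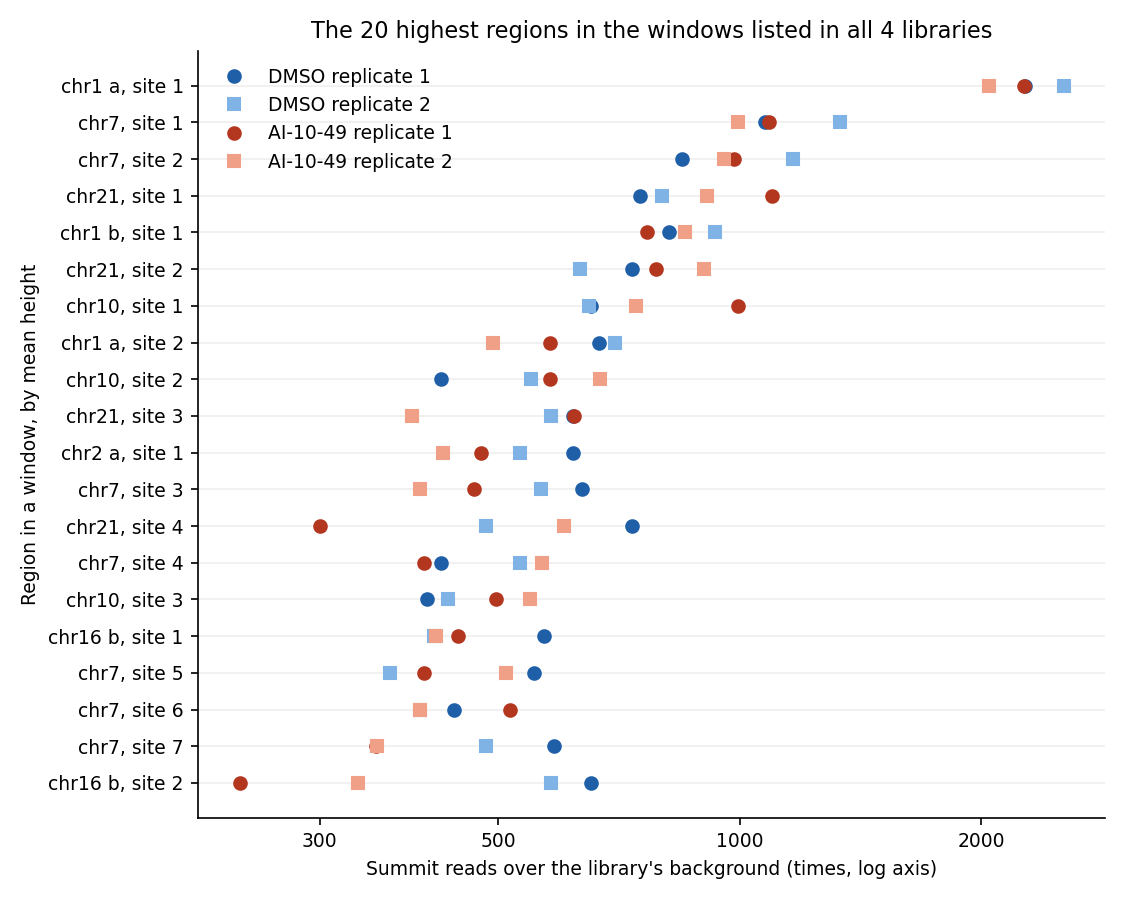
Height over the library's background (x axis, log) of the 20 highest regions of the windows found in all 4 libraries (y axis, named by window), with 1 point per library. The first site reaches 2045 to 2532 times, and the 2 highest chromosome 21 sites and chromosome 10 sites 1 to 3 have both AI-10-49 points to the right of both DMSO points.

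The tops of the other windows were lower. On chromosome 10 the highest region was chr10:42385152-42385316, with 40 and 39 reads under DMSO and 96 and 80 under AI-10-49. The first chromosome 2 window was led by chr2:88926925-88927445, with 38 and 32 reads against 46 and 46. On chromosome 16 the leaders were chr16:33963881-33964039, with 17 and 20 reads against 42 and 56, and chr16:46865294-46865561, with 35 and 25 against 43 and 45.

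Leaders here are regions found in all 4 libraries. The second chromosome 2 window was led by chr2:133561724-133561910, with 20 and 26 reads under DMSO and 12 and 23 under AI-10-49. Chromosome 9 was led by chr9:38392531-38392770, with 19 and 13 reads against 15 and 17, and chromosome 22 by chr22:17652715-17652935, with 14 and 15 against 14 and 13. These last 3 were lower over background in both AI-10-49 libraries, as 47.9% of all regions found in the 4 libraries were.

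Local background was raised around part of the window peaks. It was at least 8 times the library's for 8.19% and 7.07% of window peaks under DMSO and 8.75% and 9.03% under AI-10-49, against 6.48%, 4.67%, 4.95% and 5.32% elsewhere. The mean was 0.10 ± 0.05 higher on the log2 scale in the windows (SD, n = 4 libraries), in all 4 libraries (exact sign-flip permutation p = 0.125). Without the chromosome 10 window it was 0.03 and no longer of 1 sign in the 4 libraries (exact permutation p = 0.5). The excess was 0.05 ± 0.01 under DMSO and 0.14 ± 0.02 under AI-10-49 (SD, n = 2 each) and did not overlap (exact permutation p = 0.333).

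Very high local background gathered in few places. Only 25 regions of the genome averaged at least 32 times, and 7 of them were in the windows: the chromosome 1 site, 4 regions at the chromosome 7 pair and the chromosome 21 pair. At 8 times or more there were 84 window regions (6.08% of the window regions, against 3.46% of the others). They formed 27 clusters when neighbours within 100 kb were joined, of which the largest, chr16:46386672-46408697, held 15 regions. The chromosome 9 and chromosome 22 windows had 0 of these regions.

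Presence and absence of window regions followed the genome. A peak was listed in all 4 libraries at 397 of 1381 regions (28.7%, against 28.1% elsewhere), and in 1 library alone at 619 (44.8%, against 43.8%). Of the 547 window regions found in both DMSO libraries, 70 were absent from both AI-10-49 lists. That is 12.8%, beside 11.8% of all such regions. Of the 498 that both AI-10-49 libraries listed, 26 were absent from both DMSO lists, or 5.22% beside 5.36% in the genome. Both shares are near the background. The DMSO-only count was 23 with a −log10 q-value threshold of 5 and 11 with at least 5 reads at the summit. The AI-10-49-only count was 41 with at least 5 reads and 15 at 60 times the background, so their order depends on the threshold. Shares over all regions were not computed at these settings, so these counts cannot be set against the genome. With at least 5 reads, the whole lists kept 36256 and 33177 peaks under DMSO and 37979 and 42542 under AI-10-49.

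**Figure D4:**
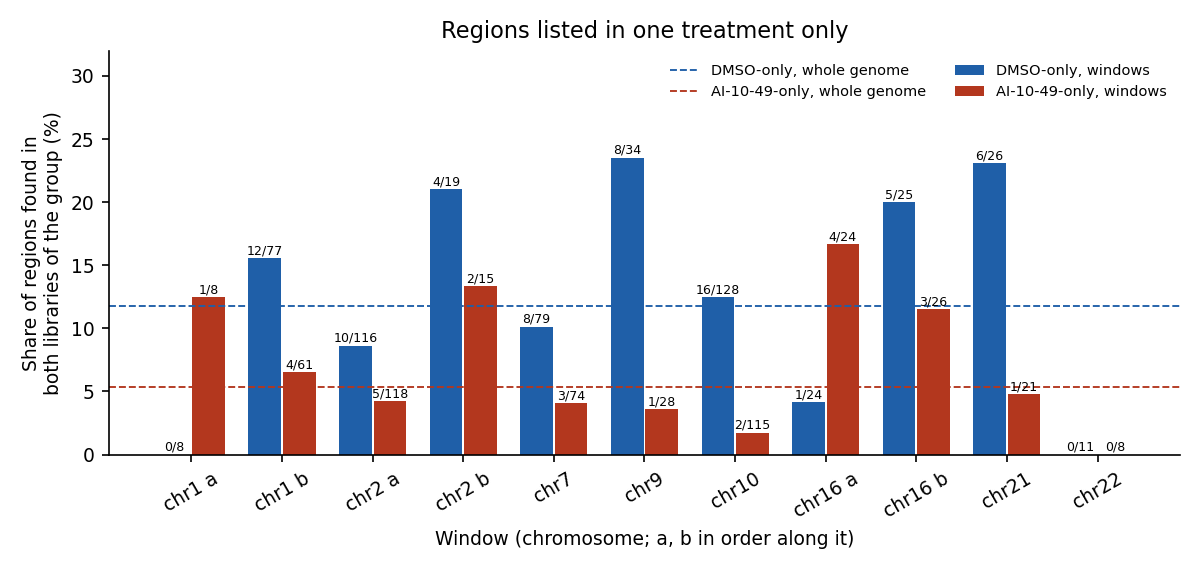
Regions listed in both libraries of 1 treatment and neither of the other, as a percent of regions found in both libraries of that treatment (y axis), by window (x axis), with counts above the bars. Dashed lines give the whole genome, 11.8% for DMSO-only and 5.36% for AI-10-49-only regions. Bars scatter around the lines, and most rest on fewer than 10 regions.

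By window the counts were small. DMSO-only regions numbered 16 of 128 on chromosome 10, 12 of 77 in the second chromosome 1 window and 8 of 34 on chromosome 9. AI-10-49-only regions numbered 5 of 118 in the first chromosome 2 window and 4 of 24 in the first chromosome 16 window. The first chromosome 1 window and chromosome 22 had 0 of 8 and 0 of 11 DMSO-only regions.

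The strongest AI-10-49-only region of the windows was chr2:133023160-133023269, with 23 and 32 reads, or 238 and 297 times the background. It was followed by chr16:33950153-33950224 with 15 and 19 reads, chr16:46393222-46393332 with 13 and 19, and chr1:121478627-121478711 with 11 and 12. The next were chr2:96811951-96812121 with 9 and 12 reads and chr1:142890942-142891048 with 10 and 9. All 6 were absent from both DMSO lists. Of these regions, chr1:121478627-121478711 lay beside the highest window region. The local background was 12.2 and 10.3 times the library's at the first, 15.6 and 15.1 times at chr16:46393222-46393332, and 1.00 and 1.00 times at chr1:142890942-142891048.

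DMSO-only regions were lower in reads, but the library background was lower under DMSO too. The strongest was chr10:43697434-43697575, with 8 and 8 reads, or 131 and 133 times the background. Next came chr1:145477487-145477605 with 7 and 8 reads, chr16:33647141-33647235 with 9 and 6, chr10:44277935-44278016 with 6 and 7, chr16:46722256-46722337 with 6 and 9 and chr2:89203425-89203575 with 5 and 7. In the lower library the median was 3 reads for the DMSO-only regions of the windows and 5 for the AI-10-49-only ones, the same as elsewhere. Over background, 3 reads is 48.95 and 49.98 times under DMSO, and 5 reads is 51.83 and 46.48 times under AI-10-49. These medians therefore do not show that a typical DMSO-only region was lower over background.

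At regions listed in all 4 libraries, height over background was compared between treatments. Across the genome the median log2 difference, AI-10-49 minus DMSO, was -0.41 over background and 0.34 in reads, so the sign of a typical change depends on the scale. In the windows the median was -0.36 (quartiles -0.69 and -0.09), or 0.05 above the genome's. By window it ran from -0.13 relative to the genome's median in the first chromosome 16 window to 0.23 in the second.

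Both AI-10-49 libraries were higher than both DMSO libraries at 29 of the 397 window regions (7.30%, beside 5.21% of all) and lower at 178 (44.8%, beside 47.9%). When every library was centred on its median region, the counts were 84 higher (21.2%, beside 19.7%) and 76 lower (19.1%, beside 18.7%). In reads they were 149 higher (37.5%, beside 35.1%) and 13 lower (3.27%, beside 3.8%). On each scale the window shares were near those of the genome.

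Among regions whose treatments did not overlap, the largest rises over background were at chr1:145096326-145096546, chr2:133012726-133012916 and chr2:92290772-92290988. The first had 3 and 5 reads under DMSO and 14 and 11 under AI-10-49, a log2 difference of 0.93 over background. The second had 7 and 12 reads against 26 and 32 (0.91), and the third 5 and 5 against 15 and 12 (0.68). Relative to the genome's median these were 1.34, 1.32 and 1.08.

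By the same rule, the largest falls over background were at chr2:95622654-95622786, chr7:65445842-65446065 and chr16:31707109-31707325. The first had 10 and 9 reads under DMSO and 3 and 7 under AI-10-49, a log2 difference of -1.80. The second had 10 and 13 reads against 6 and 7 (-1.56), and the third 12 and 15 against 7 and 9 (-1.51). All 3 were lower in reads as well, without overlap.

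Change in height differed with local background up to a point. At the 45 window regions with a local background of at least 8 times, the median log2 difference was -0.11, or 0.30 above the genome's median. At the 352 below 8 times it was -0.43, or -0.02 relative to it. Regions elsewhere showed the same order with a smaller gap, with -0.20 at 2314 and -0.44 at 26330 regions. Of the 45, both AI-10-49 libraries were higher over background at 14 (31.1%, against 10.5% of the 2314) and lower at 12 (26.7%, against 36.3%). Centred on the median region, 26 were higher (57.8%, against 39.3%) and 4 lower (8.89%, against 10.4%). At 32 times or more the order did not hold elsewhere. The 14 regions outside the windows had a median of -0.40, with 0 higher and 9 lower. The 5 in the windows had -0.03, with 2 higher and 1 lower. Those 14 lie in few places, with close neighbours on chromosomes 5, 6, 11 and 17, and are not independent. The rule has no window on chromosomes 6 and 17, so sequence like that of the windows may be among them. This was not checked against an annotation. The threshold of 8 times was set after these values were seen, so no test was made. Local background was averaged over both treatments, so a region can pass through the treatment where it is high. Of the 14, chr16:46406904-46407000 had 5.61 and 8.79 times under DMSO and 9.98 and 10.1 times under AI-10-49. The 2314 were chosen in the same way. The groups differed in height as well. Median height was 317 times the background at the 45 and 112 times at the 352, and 275 and 101 times elsewhere. The part of depth or height in this pattern was not tested.

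**Figure D5:**
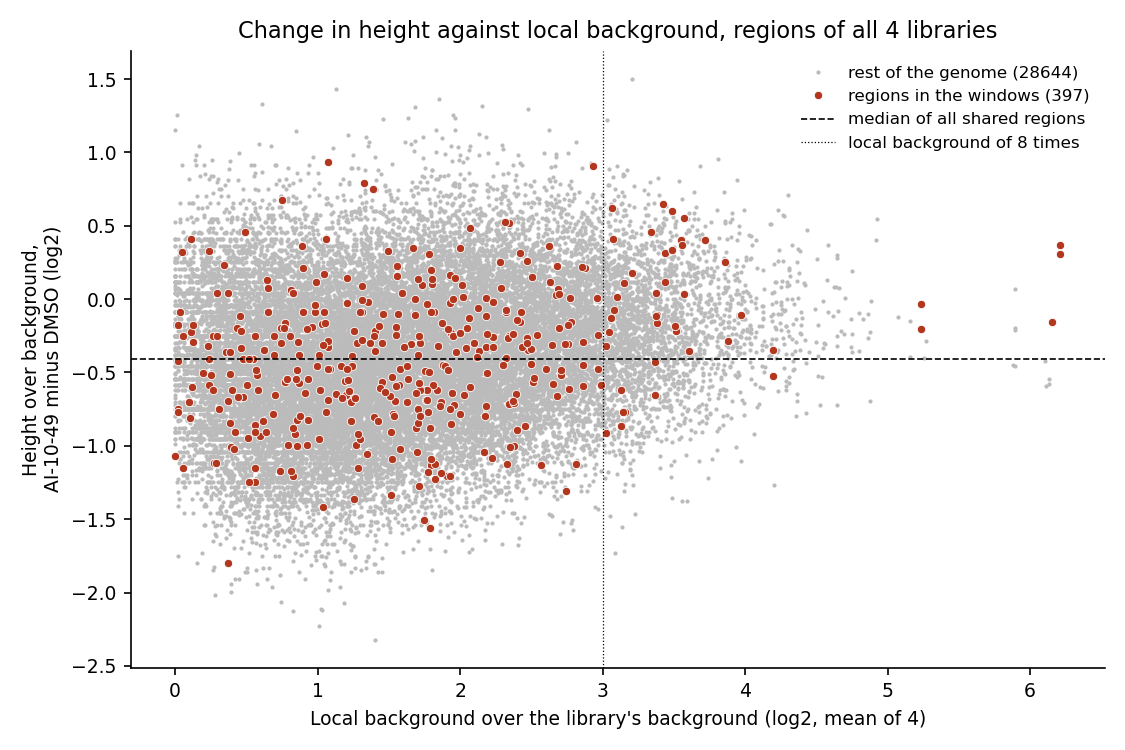
Log2 difference in height over background, AI-10-49 minus DMSO (y axis), against the log2 of the local background over the library's, mean of 4 libraries (x axis), with 1 point per region found in all 4 libraries. Of the 5 window regions at the far right, the chromosome 21 pair lies above 0 and the chromosome 1 and 7 sites lie just below 0. All 5 are above the dashed median of -0.41. The 14 other regions at that level lie in few places and have a median of -0.40.

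The 14 regions with raised local background that were higher in both AI-10-49 libraries lay in 9 of the clusters. On chromosome 10, all 5 regions of chr10:42384702-42396925 and chr10:42596878-42600213 that were found in all 4 libraries were higher in both AI-10-49 libraries. At chr10:42599566-42599971 the reads were 26 and 33 under DMSO and 56 and 72 under AI-10-49, and at chr10:42392659-42392771 they were 25 and 26 against 48 and 59. The median local background of the first cluster was 9.21 and 13.1 times the library's under DMSO and 16.7 and 14.4 times under AI-10-49.

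On chromosome 16 such regions lay on both sides of the centromere. In chr16:33959226-33964039, 1 of 2 regions found in all 4 libraries was higher over background in both AI-10-49 libraries, and both were when centred. At chr16:33963881-33964039 the local background was 7.41 and 8.68 times under DMSO and 14.2 and 14.5 times under AI-10-49, and height was 0.65 higher on the log2 scale, without overlap. In the cluster chr16:46386672-46408697 the libraries listed 2 and 7 regions under DMSO and 11 and 9 under AI-10-49. Its median local background was 6.14 and 8.79 times under DMSO and 12.3 and 11.9 times under AI-10-49. A region entered by the mean local background of the libraries that listed it, so the filter itself favours AI-10-49 in these counts. The 2 regions of this cluster found in all 4 libraries were both higher under AI-10-49. One, chr16:46406904-46407000, had 6 and 9 reads against 20 and 18.

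On chromosome 2, the cluster chr2:133015187-133031305 had 2 and 1 listed regions under DMSO and 4 and 4 under AI-10-49. Its 1 region in all 4 libraries, chr2:133025781-133025913, had 13 and 10 reads under DMSO and 30 and 28 under AI-10-49. The strongest AI-10-49-only region, described above, lies in the same cluster. The chromosome 21 pair had a median local background of 66.6 and 60.2 times under DMSO and 83.8 and 89.4 times under AI-10-49. The other 3 clusters with such a region each had 1: chr2:88990942-88991368 with 21 and 26 reads against 42 and 47, chr2:96814245-96814509 with 11 and 8 against 20 and 22, and chr16:46723413-46723624 with 17 and 13 against 32 and 42. The cluster of chr2:88990942-88991368 also had 2 regions that were lower in both AI-10-49 libraries. That of chr2:96814245-96814509 listed 2 and 2 regions under DMSO and 3 and 3 under AI-10-49. That of chr16:46723413-46723624 went the other way, with 4 and 3 listed under DMSO and 2 and 2 under AI-10-49. It includes the DMSO-only region chr16:46722256-46722337. Over all clusters the direction was mixed. Of the 25 clusters with a region in all 4 libraries, 11 had a higher local background under AI-10-49 than under DMSO. The smallest of these log2 rises were 0.007, 0.010 and 0.019. The genome's median log2 difference in local background was -0.23, and it was -0.18 at regions of at least 8 times outside the windows. The share of such clusters elsewhere was not computed. The single region chr10:43616330-43616669 had 32 and 33 reads under DMSO and 32 and 28 under AI-10-49, a log2 difference of -0.87, and its local background was 10.5 and 11.0 times against 7.32 and 7.02 times. These clusters were singled out after their values were seen. Regions of 1 cluster share reads and local background and are not independent. Every count of listed regions depends on the filter, which used the mean local background of the libraries that listed a region.

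The nearest region inside a window edge lay a median of 24.2 kb from it and the nearest outside 42.3 kb. Their median heights were 49.0 and 56.4 times the background. Between the window pairs of chromosomes 1 and 16 the nearest outside region is the first or last of the partner window across the centromere, which includes the highest window region. At the start of the first chromosome 1 window, for example, the region just inside, chr1:120510759-120510889, had 4 and 2 reads under DMSO and 5 and 4 under AI-10-49, and the region just outside, chr1:120491389-120491483, was listed in DMSO replicate 1 alone with 6 reads.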

How the data were processed

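The files were 4 peak lists, 1 per library, on hg19 per the submitters' processing notes, which list MACS2 2.1.0, Picard 1.96, cutadapt 1.3, deepTools and Bowtie2 and give no role or order. Settings of the peak calling, read totals and any filter for repeats are not given in the sources used here. Every peak, as deposited, has a score (not used), a fold enrichment ratio at the summit, a −log10 p-value and q-value, and a summit offset, as the authors' peak caller wrote them.

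Chromosomes 1 to 22 and X were kept, and rows with identical coordinates were collapsed to the row with the highest −log10 p-value. Summit reads k and local background λ were solved from fold = (k+1)/(λ+1) and the Poisson tail, with a tolerance of 0.001 in −log10 p. All but 1, 1, 0 and 1 peaks of the libraries (none in the windows) gave whole reads. The solving step was tested on values simulated with the same formula. That checks the inversion and cannot show that the formula matches what the peak caller did. The library's background was the most frequent λ. Depth is thus known through these values only.

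Peaks overlapping by at least 1 bp were merged into regions, and a region was a member by its midpoint. Where a library had several peaks in a region, the strongest was used. Libraries were compared by two-sided exact permutation tests, which cannot go below 0.333 for 2 against 2 and 0.125 for 4 sign flips. Each p-value is the share of relabellings or sign flips of these libraries that give a difference at least as large, and concerns these libraries only. Named regions are the 6 highest, the top of each window, the 6 strongest of each treatment-only kind and the 3 largest non-overlapping rises and falls. Edge regions and the members of clusters with raised local background are also named, the latter chosen after their values were seen. Members, windows and lists were chosen with earlier results of these data known. Analyses used Python 3.11.15 with pandas 2.3.3, NumPy 2.4.6 and SciPy 1.17.1.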

Additional observations from a re-analysis of the deposited data

How the results depend on the processing

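Of 185 alternatives over 10 results, 151 kept direction or stayed within 1.5 times. Mean height and local background in the windows against the rest stayed above 0, but not in every library by medians (0.10 and 0.08, exact permutation p = 0.5 and 0.375) or, for local background, without the chromosome 10 window (0.03, p = 0.5). The exact permutation tests used here cannot reach 0.05 with these libraries. The share difference of 0.0328 turned to -0.0417 (−log10 q of at least 5), -0.00102 (equal list lengths) and -0.0116 (5 reads), and ranged from -0.0168 to 0.0824 without 1 library. Width by treatment turned to -0.685 bp with 5 reads. Width against the rest turned to 0.170, 2.29, 1.14 and 0.465 bp without the windows of chromosomes 1, 2, 9 or 16 and to 9.20 bp with all rows, and ranged from -1.44 to 0.239 bp without 1 library. DMSO-only regions, 70 as reported, were 23, 37 and 11 under the same 3 settings as the share, and AI-10-49-only regions, 26 as reported, numbered 40 (equal lengths), 41 (5 reads) and 15 (60 times the background). Without 1 library they ranged from 104 to 322 and from 61 to 127, since the criterion is then looser. Shared regions higher or lower with AI-10-49 were 149 and 13 in reads and 84 and 76 when centred. Without 1 library they were 56 to 83 and 247 to 297. Apart from the reported, reads and centred counts, shares over all regions were not computed for the region counts given here. Settings on these shared regions, and peaks below 8 times the local background, were chosen after seeing the data. With the replicate number as a replicate block the differences were 0.0328, 14.9 and -0.0813 (exact p = 1, 0.5 and 0.5). With 2 libraries per group nothing shows that the numbers pair the samples.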

Other observations

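Repeated rows for 1 peak, which the authors' caller wrote when a peak had several summits, were about as frequent in the windows as elsewhere. They occurred for 3.98% and 3.48% of window peaks under DMSO and 7.24% and 6.94% under AI-10-49, against 3.8%, 3.09%, 6.91% and 7.39% of other peaks. Window peaks whose local background equalled the library's own made up 20.5% and 23.2% under DMSO and 10.9% and 12.9% under AI-10-49, against 17.4%, 18.6%, 8.77% and 10.3% elsewhere. A larger share of window peaks than of other peaks therefore lay at both ends in each of the 4 libraries. The ends are quiet surroundings and a local background of 8 times or more.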
